A study of Mus musculus with 18 samples.

Results

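The cytoskeleton genes described here are the tubulins, the actins with the proteins that shape actin filaments, and the kinesin and myosin motors. A cDNA clone was taken as a member where its single gene symbol began with Tuba, Tubb, Tubg, Actb, Actg, Actn, Actr, Arpc, Capz, Cfl, Tpm, Myl, Myh or Kif. This gave 99 of the 15360 clones on the arrays, for 61 genes, and 1 further clone, of the kinase gene Mylk, was left out. There were 17 tubulin clones of 9 genes, 45 actin clones of 24 genes and 37 motor clones of 28 genes. All 99 were measured on 1 or both arrays of every condition, and 55 on all 18 arrays.

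The arrays set mouse embryonic stem (ES) cells and embryoid bodies (EBs), the cell aggregates in which ES cells differentiate, against a pooled control. Undifferentiated IMT11 ES cells, an unmodified line, were kept on gelatin with LIF, the cytokine that holds mouse ES cells undifferentiated (D0). EBs were started as hanging drops of 1000 cells and taken at Days 1, 2, 3 and 4. Conditions grown without LIF are named D1-LIF to D4-LIF, those grown in its presence D1+LIF to D4+LIF, and all cultures shared a medium with fetal and newborn bovine serum. Each of the 9 conditions had 2 arrays, 1 with the sample in Cy3 and 1 with the sample in Cy5. The pool is described as EBs of Days 1 to 4 in the labels and as all samples in the methods, so whether it held D0 RNA is unclear. The labels state 2 biological sets with different RNA but do not tie the arrays to them. Dye and set can therefore not be told apart. The p-values of fits over both dyes measure the spread between these 2 arrays of a condition, pooled over the 9 conditions. Fits within 1 dye hold no replicates, and their p-values measure the spread between different conditions or about a fitted line.

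Values are log2 ratios, averaged over the duplicate spots of a clone and centred on the median of all clones of the same slide and array, so that 0 is the level of the typical clone on that array. The clone set was printed on 2 slides, with 62 member clones on the first and 37 on the second. The source does not state which channel was divided by which. The labels list the sample as channel 1, so sample over pool is the likely direction, and this is the one used. It is not settled by the data, since the 2 arrays of a condition correlated between -0.52 and 0.48 over all clones (mean -0.11), against a mean of 0.33 among Cy3 arrays and 0.63 among Cy5 arrays. On the second slide alone, Cy3 arrays of different conditions correlated down to -0.31. Values with the Cy3 signs turned are therefore given beside the comparison of EBs with D0. Pool over sample on all arrays would reverse every direction reported, and turning the Cy5 signs alone was not run. Where the study gives Tubb5 a direction between EBs with LIF of different days, the fitted sign here was the opposite one, without passing the test. The study also reports a reproducible change of Tubb5 by RT-PCR, both with and without LIF, which these array values do not test.

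Some arrays stood apart. The first slide of D0 in Cy3 had a median ratio of 0.14 and an SD of 2.23 on the log2 scale, where the other Cy3 first slides had SDs from 0.211 to 0.63. The first slides of D1+LIF and D2-LIF in Cy5 held only 9307 and 2031 of 17280 spots, with SDs of 2.40 and 2.10. The widest second slide was D4+LIF in Cy5, with an SD of 1.41. For this reason, positions are also given as percentiles, the rank of a clone among all clones of its slide on that array, on which 50 is the typical clone. In bulk RNA, fewer cells of a type and less RNA per cell cannot be told apart.

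Microtubules are built from dimers of alpha- and beta-tubulin, nucleated at centrosomes by gamma-tubulin complexes, and serve as tracks and as the spindle of dividing cells. Actin filaments are branched by the Arp2/3 complex, capped by CapZ, cut by cofilin and stabilised by tropomyosin and alpha-actinin. Kinesins walk along microtubules or take them apart, and non-muscle myosin II, made of heavy and light chains, pulls on actin. ES cells divide fast and hold large amounts of tubulin and cytoplasmic actin RNA, and several actin and myosin genes are known targets of the serum response factor, which binds a DNA element named the CArG box.

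Promoters of 4 members are shown because the CArG box is known from actin and myosin genes, with Tubb5 as a tubulin beside them. A link between the element and the values of these clones was not tested. The sequences are the 250 bases before a RefSeq gene start (GRCm38.p6), 5′ to 3′ on the strand of the gene, and capitals mark a CArG box, searched by its consensus on both strands. Actg1 (gamma-actin) lies at chr11:120348496-120348745 (minus strand), with the element starting at -90 from the gene start. Myl6 (myosin essential light chain) lies at chr10:128493010-128493259 (minus strand), with the element at -50, and a second start of Myl6 had none. Myl9 (a regulatory light chain) lies at chr2:156775214-156775463 (plus strand), with the element at -161. Tubb5 (a beta-tubulin) lies at chr17:35838302-35838551 (minus strand) and had no match in this window.
Actg1: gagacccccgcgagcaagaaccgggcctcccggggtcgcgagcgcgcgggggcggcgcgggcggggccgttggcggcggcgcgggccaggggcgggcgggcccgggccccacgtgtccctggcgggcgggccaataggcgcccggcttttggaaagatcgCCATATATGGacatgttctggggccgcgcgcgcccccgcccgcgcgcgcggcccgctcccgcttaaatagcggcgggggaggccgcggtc
Myl6: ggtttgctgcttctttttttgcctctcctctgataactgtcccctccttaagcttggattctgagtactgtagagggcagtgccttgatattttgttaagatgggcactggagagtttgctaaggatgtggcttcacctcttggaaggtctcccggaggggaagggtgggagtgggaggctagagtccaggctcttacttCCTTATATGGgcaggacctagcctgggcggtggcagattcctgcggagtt
Myl9: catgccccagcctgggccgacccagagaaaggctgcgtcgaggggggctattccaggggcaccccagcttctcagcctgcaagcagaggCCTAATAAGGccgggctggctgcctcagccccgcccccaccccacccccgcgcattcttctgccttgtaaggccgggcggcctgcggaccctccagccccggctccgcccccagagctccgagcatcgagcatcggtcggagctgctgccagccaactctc
Tubb5: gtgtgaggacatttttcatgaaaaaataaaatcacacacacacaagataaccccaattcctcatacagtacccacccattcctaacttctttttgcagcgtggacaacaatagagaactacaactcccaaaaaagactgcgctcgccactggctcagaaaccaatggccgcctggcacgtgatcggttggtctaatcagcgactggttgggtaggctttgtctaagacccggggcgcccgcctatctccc
A promoter sequence was matched for 49 of the 61 member genes, and 4 of these (8.16%) held the element, namely Actg1, Arpc4, Myl6 and Myl9, against 439 of 27025 genes in all (1.62%). By class these were 2 of 20 actin genes, 2 of 24 motor genes and 0 of 5 tubulin genes with a promoter, too few to set the classes apart. The promoters of Actg1, Myl6 and Myl9 shown above are among these 4, so most actin and motor genes had no match. A match describes these letters only.

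The first comparison asked how each class stood against the pool in the 9 conditions, with each dye apart. In Cy5, the median of the tubulin clones lay below the typical clone on every array. Their median percentile over both slides was 4.79 in D0 and between 3.11 and 43.1 in the 8 EB conditions, and the 2 highest values were D2-LIF (43.1) and D1+LIF (35.4), the arrays with few spots on the first slide. In Cy3 the same clones lay near the top in D0 (94.3), in EBs without LIF at Days 2 (96.9) and 4 (93.2), and in EBs with LIF at Days 1 (94.1) and 4 (94.3). They lay near the bottom in D1-LIF (7.25) and D3-LIF (5.48), and between in D2+LIF (70.8) and D3+LIF (40.5). The 2 dyes thus placed the tubulins on opposite sides of the typical clone in D0 and in most EB conditions. Only D1-LIF, D3-LIF and D3+LIF had the median below the typical clone in both dyes.

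Actin clones were likewise high for D0 in Cy3 and low for D0 in Cy5, with smaller distances. Their median percentile was 89.3 for D0 in Cy3 and 11.8 for D0 in Cy5. In EBs it ran from 38.0 (D1-LIF) to 83.6 (D2-LIF) in Cy3 and from 10.5 (D2+LIF) to 34.1 (D2-LIF) in Cy5. Motor clones stayed near the middle, at 36.5 to 57.4 in Cy3 and 35.9 to 53.7 in Cy5, so the class as a whole did not share the contrast between dyes.

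**Figure D1:**
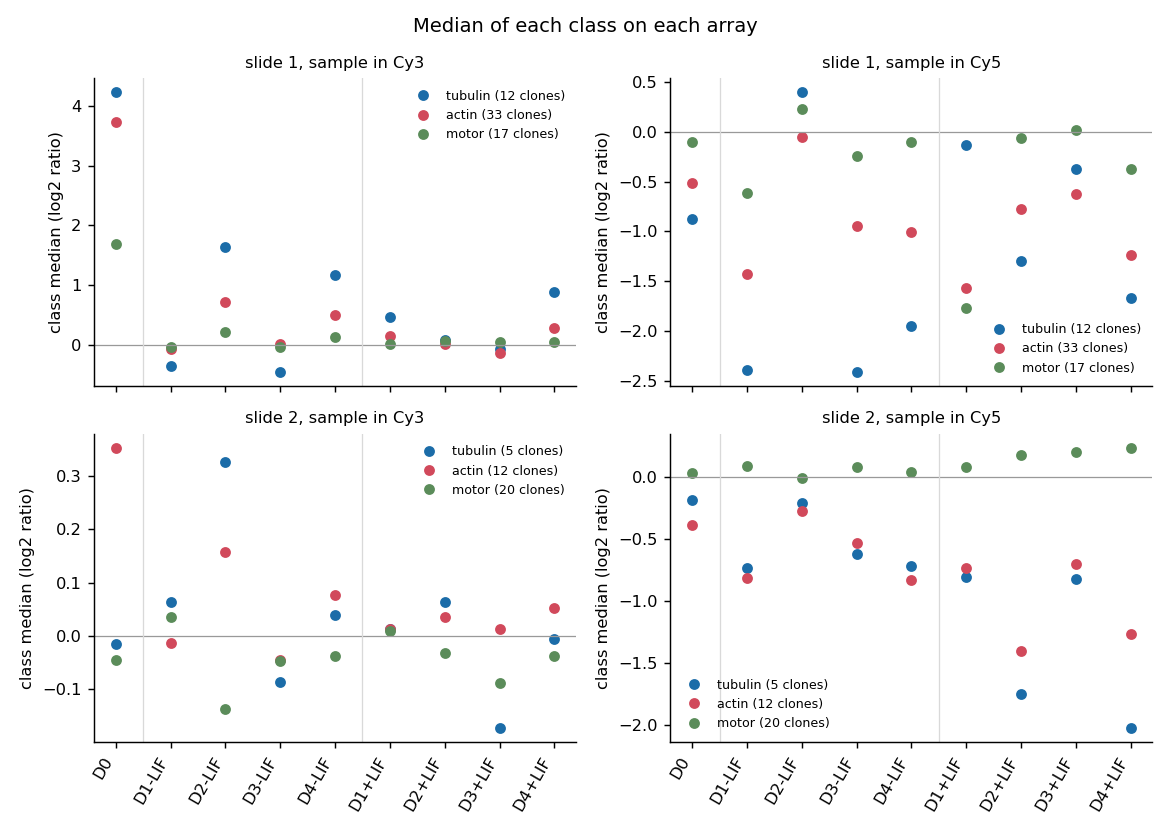
Median log2 ratio against the pool (vertical axis) of the tubulin, actin and motor clones on each array, with the 9 conditions along the horizontal axis and slides and dyes in separate panels whose vertical scales differ. On the first slide the tubulin median is 4.22 for D0 in Cy3 and -0.87 for D0 in Cy5.

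Counted clone by clone, 13 of 17 tubulin clones were above the typical clone in Cy3 and below it in Cy5 in D0, beside 5376 of all 15360 clones. Another 2 tubulin clones were below in both, beside 15% of all clones. In D3-LIF 14 of 17 (82.4%) were below in both dyes, where 27.7% of all clones were. For D1-LIF the counts were 11 of 17 (64.7%) against 27.5% of all clones, and for D3+LIF 10 of 17 (58.8%) against 26.6%. In D4-LIF no tubulin clone was below in both dyes (18.1% of all clones) and 14 of 17 were above in Cy3 and below in Cy5 (4896 of all 15360). With the Cy3 signs turned, the tubulin clones below in both dyes would be 13 of 17 in D0, 1 of 17 in D3-LIF and 14 of 17 in D4-LIF. Over all 15360 clones the turned counts would be 5376, 3422 and 4896. These arrays share the pool, so the counts are given without a test.

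Among the tubulins, Tubb5 had 7 clones. Clone BG087420 of the second slide had the smallest p of all members against D0. In Cy3 it stood at 1.42 in D0, -0.96 in D1-LIF, 1.09 in D2-LIF, -0.59 in D3-LIF, 0.38 in D4-LIF, 0.08 in D1+LIF, 0.33 in D2+LIF, -0.18 in D3+LIF and 0.05 at Day 4 with LIF. In Cy5 the same 9 conditions gave -1.51, -3.62, -2.10, -2.51, -1.90, -2.56, -3.30, -3.20 and -3.53. D0 was the highest condition in both dyes and D1-LIF the lowest, so no EB array reached D0 of its own dye. The log2 change of D1-LIF against D0 was -2.24 (SE 0.381, limma adjusted p = 0.0764), and that of all EBs against D0 was -1.36 (SE 0.286, adjusted p = 0.0845). Within Cy3 the change of all EBs against D0 was -1.39 and within Cy5 -1.33, each resting on 1 D0 array. With the Cy3 signs turned, D0 would be the lowest condition in Cy3, and the change of all EBs was 0.031.

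Clone CK335044 of Tubb5, also on the second slide, was at 1.00 for D0 in Cy3 and -1.79 for D0 in Cy5, again the highest value of each dye, and its change over all EBs was -1.06 (SE 0.325, limma adjusted p = 0.0941). The third second-slide clone, CK334937, had a narrow range of -0.09 to 0.33 in Cy3, with D0 at -0.01, and -0.19 for D0 against -2.02 for D4+LIF in Cy5. Its change of -0.34 (SE 0.321, limma adjusted p = 0.486) did not pass the test. The 4 first-slide clones of Tubb5 were at 4.13 to 4.66 for D0 in Cy3, on the array with the wide first slide, and their changes ran from -2.46 to -2.13. Between D1+LIF and D3+LIF, the comparison for which the study names Tubb5, the change of BG087420 was -0.45 (SE 0.381, limma adjusted p = 0.996), and all 7 clones had a negative sign without passing the test.

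The remaining beta-tubulins Tubb2b, Tubb3 (the neuronal isotype), Tubb4b and Tubb6 and the alpha-tubulin Tuba1b lay on the first slide. Tuba1b stood at 4.43 for D0 in Cy3 and between -0.63 and 1.67 in EBs, and at -1.37 for D0 in Cy5 and between -3.16 and 0.89 in EBs. The 3 clones of Tubb4b had changes of -2.44, -2.11 and -2.10 over all EBs (SE 0.616, 0.789 and 0.605). All 14 tubulin isotype clones, most of them on the first slide, had a negative sign over all EBs against D0, from -2.46 to -0.34. Of these, 10 were at an unadjusted p under 0.05, where 33.3% of all clones (17.7% lower) and 49.2% of first-slide clones were. The negative direction was not kept under other settings. The clone of largest change, Tubb5 BG065290, became 1.63 with the Cy3 signs turned and 0.36 with arrays scaled to equal median absolute deviation. The pseudogene clone Tubb2a-ps2 went the other way, at -0.82 for D0 in Cy3 and a change of 0.47. The gamma-tubulin complex clones Tubgcp2 and Tubgcp5 differed little between conditions, with changes of 0.13 and 0.09, and Tubgcp2 had the best match between its 2 arrays of a condition of any tubulin clone, with a mean difference of 0.0996 once dye means were removed. cDNA clones also bind RNA of near-identical relatives, so the tubulin isotypes, like Actb and Actg1, are not separated with certainty.

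**Figure D2:**
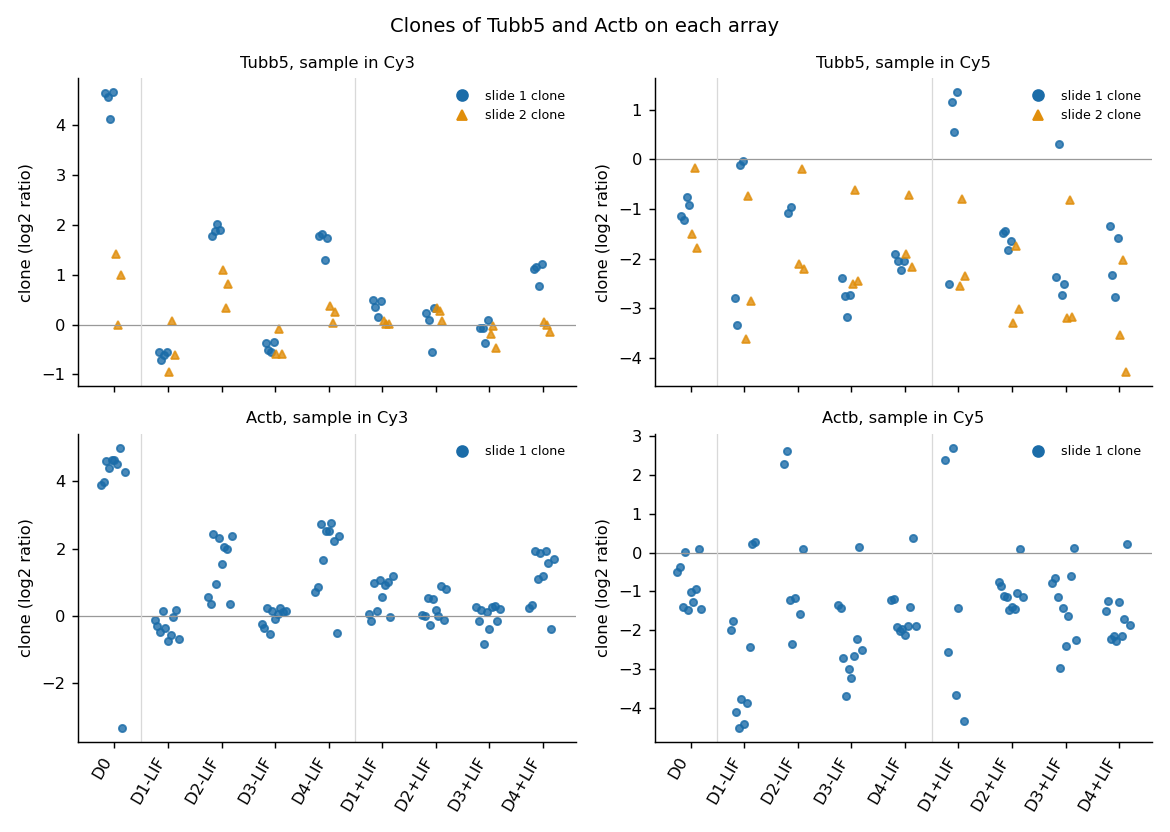
Log2 ratios against the pool (vertical axis) of the Tubb5 and Actb clones over the 9 conditions (horizontal axis), 1 point a clone, in separate panels for gene and dye whose vertical scales differ. In Cy3 the first-slide clones are highest on the D0 array, except the Actb clone CK334523 below -3.

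Cytoplasmic actin had 12 clones, 10 of Actb and 2 of Actg1. The study reports beta-actin as differentially regulated on its arrays. By RT-PCR it describes the expression of beta-actin as varying unpredictably during differentiation. Clone BG077677 of Actb had a value on all arrays. In Cy3 it read 4.63 in D0, -0.36 in D1-LIF, 2.30 in D2-LIF, 0.13 in D3-LIF, 2.54 in D4-LIF, 1.08 in D1+LIF, 0.51 in D2+LIF, 0.12 in D3+LIF and 1.87 at Day 4 with LIF. In Cy5 it read -1.49, -3.77, -1.16, -2.99, -1.96, -3.67, -1.48, -1.42 and -2.27 in the same order. D0 was above every EB array in Cy3, while in Cy5 it lay within the EB range. The change over all EBs was -2.23 (SE 0.678, limma adjusted p = 0.0941), made up of a large difference in Cy3 and -0.85 (SE 0.989) within Cy5.

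Of the other Actb clones, 8 had changes from -3.06 to -1.63. The exception was CK334523, at -3.33 for D0 in Cy3 but between -0.50 and 0.37 on the remaining arrays, with a change of 1.78 (SE 0.574), opposite to the other 9 clones assigned to the gene. Its 2 spots on the D0 Cy3 array differed by 1.31. Actg1 clone BG085542 on the second slide was at 2.11 for D0 in Cy3 against -0.86 to 0.93 in EBs, and at -2.01 for D0 in Cy5 against -3.96 to -1.77 in EBs. It thus stood apart from the EBs in Cy3 and overlapped them in Cy5.

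Cfl1, the non-muscle cofilin, had a clone on each slide. CK334370 on the first slide was at 4.36 for D0 in Cy3 (EBs -0.71 to 1.51) and -1.25 for D0 in Cy5 (EBs -4.00 to -1.49), and BG086288 on the second slide was at 1.22 (EBs -0.90 to 0.50) and -1.64 (EBs -4.40 to -1.34). D0 was therefore the highest of all conditions on 3 of these 4 sets of arrays. Changes over all EBs were -2.67 (SE 0.649, limma adjusted p = 0.0941) and -1.19. Both cofilin clones had a low median percentile in both dyes in D1-LIF (6.57 and 3.02), D3-LIF (1.42 and 2.27) and D3+LIF (2.55 and 5.23).

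Tpm3, a tropomyosin, had 3 first-slide clones with changes of -2.39, -2.08 and -2.02 over all EBs. For BG077822 the D0 value was 4.46 in Cy3, far above the EB range of -0.01 to 0.87, and -0.17 in Cy5, just above the EB range of -1.53 to -0.18. All 10 Arp2/3 clones of 7 genes and all 5 capping protein clones of 3 genes had negative signs, with medians of -1.48 and -0.77. Of these, 6 and 2 were at an unadjusted p under 0.05, beside 33.3% of all clones (17.7% lower). On the first slide, which held most of the Arp2/3 clones, the share of all clones was 49.2%, against 17.4% on the second. Alpha-actinins had no shared sign. Actn1 clones gave -1.50, -1.23 and 1.09, and Actn4, whose 2 arrays of a condition differed least among actin clones (mean difference 0.143), stayed between -0.29 and 0.38 on all its arrays.

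**Figure D3:**
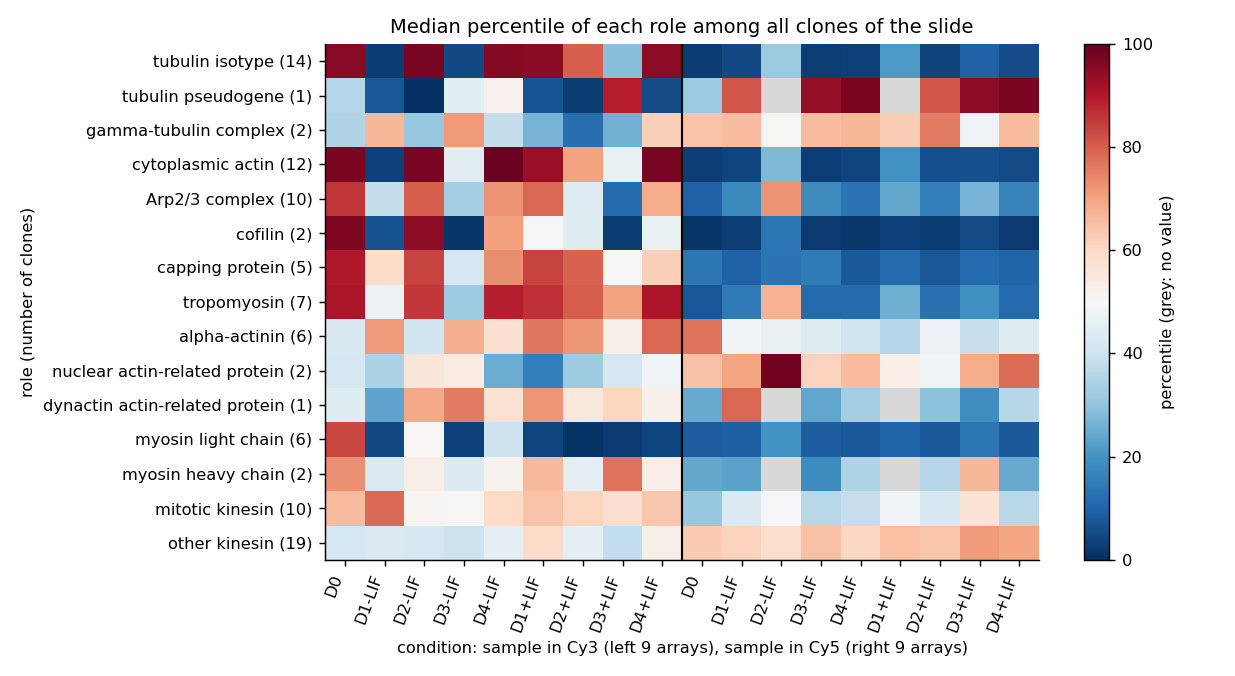
Median percentile among all clones of the slide (colour scale, 0 to 100) of the clones of each role, by condition and dye. For D0, tubulin isotypes, cytoplasmic actin and cofilin are high in Cy3 and low in Cy5, other kinesins stay nearer to 50, and myosin light chains are low in both dyes in 6 of 8 EB conditions, which holds only for the direction of the ratios used here.

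Myosin light chains were low in both dyes in 6 of the 8 EB conditions, whereas with the Cy3 signs turned they would be high in Cy3 and low in Cy5 there. There were 6 clones of 5 genes, 5 of them on the second slide. Their median percentile was 83.5 for D0 in Cy3, between 1.15 and 4.72 in D1-LIF, D3-LIF and the 4 conditions with LIF, and 50.4 and 39.5 in D2-LIF and D4-LIF. In Cy5 it was 8.37 for D0 and between 7.92 and 19.9 in EBs.

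Myl6, the essential light chain of non-muscle myosin, was at 0.76 for D0 in Cy3 and at -0.57, 0.07, -0.64 and -0.03 at Days 1 to 4 without LIF and -0.25, -0.31, -0.74 and -0.26 with LIF. In Cy5 it was at -1.44 for D0, at -1.71, -1.33, -1.63 and -1.49 without LIF and at -1.71, -2.65, -2.66 and -3.09 with LIF. All EB arrays but D2-LIF in Cy5 were below D0 of their dye. Myl12b, a regulatory light chain, had a second-slide clone (BG084591) at 0.56 for D0 in Cy3 and -0.81 to 0.05 in EBs, and at -0.76 for D0 in Cy5 and -3.60 to -1.02 in EBs.

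Both dyes thus held D0 of that clone above all 8 EB arrays, and its change over all EBs was -1.10 (SE 0.375, limma adjusted p = 0.0967), -0.95 within Cy3 and -1.25 within Cy5. With the Cy3 signs turned, D0 in Cy3 would lie below all 8 EB arrays instead. The first-slide clone of Myl12b, BG078443, gave -2.75 (SE 0.747, adjusted p = 0.0941). The study lists this gene, as Mylc2b, among its EB array genes for which RT-PCR gave no reproducible change. Myl12a and Myl9, further regulatory light chains, kept to narrow Cy3 ranges of -0.47 to 0.18 and -0.49 to 0.02, and were negative on all 9 Cy5 arrays. For both, D0 was the highest Cy3 value. Mylpf, the light chain of fast skeletal muscle, stayed between -0.58 and 0.32.

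**Figure D4:**
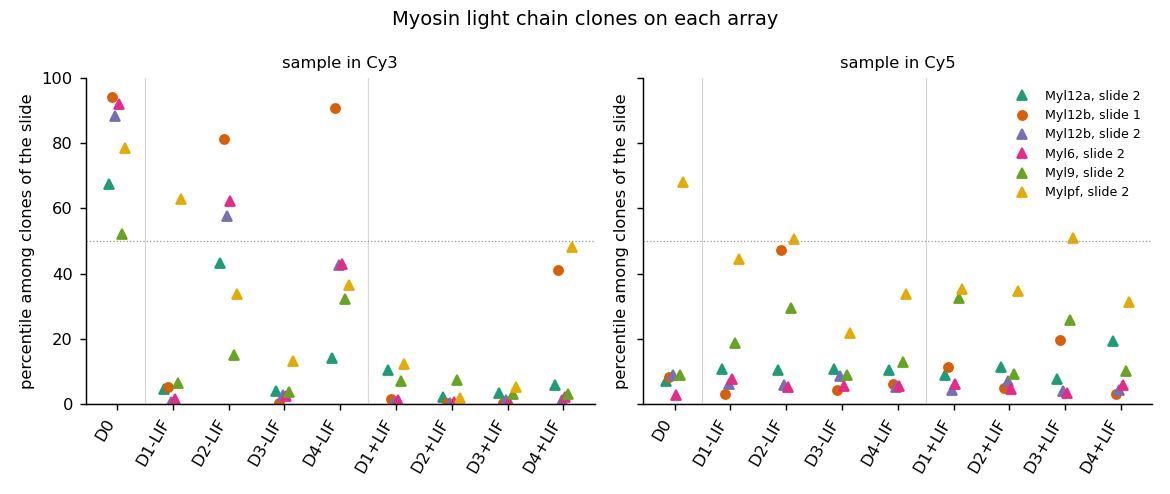
Percentile among all clones of the slide (vertical axis, 0 to 100) of the 6 myosin light chain clones over the 9 conditions (horizontal axis), 1 point a clone, with Cy3 and Cy5 in separate panels. All 6 are above the typical clone for D0 in Cy3, and most are near the bottom in EBs of both dyes, except at D2-LIF and D4-LIF in Cy3, and turned Cy3 signs would mirror the Cy3 panel about the typical clone.

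The kinesins showed no shared course. The 19 clones of kinesins not known for mitosis had median percentiles of 37.8 to 59.5 in Cy3 and 58.9 to 71.4 in Cy5, slightly on the upper side in Cy5. Kif3a and Kif3b, the subunits of the motor that builds cilia, Kif1b, Kif9 and Kif16b each had a clone above 0 on all its Cy5 arrays. Kif28 was the opposite case, negative on all 9 Cy5 arrays (-2.57 to -0.63) and between -0.42 and 0.54 in Cy3. Kif5b, conventional kinesin, had 3 clones with changes of -1.86, -0.22 and 0.56, of which the first rests on the D0 Cy3 first slide (3.35).

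Mitotic kinesins were mixed. Kif18a, which limits chromosome movement on the spindle, was at 3.45 for D0 in Cy3 against -0.32 to 0.60 in EBs, and at -0.30 in Cy5 against -2.36 to -0.46 in EBs, D0 being highest in both. Its change was -2.04 (SE 0.507, limma adjusted p = 0.0941). The Kif23 clones, for a motor of cell division, gave -1.59 and -1.48 on the first slide and -0.12 on the second. Kif11, the motor that separates spindle poles, stayed between -0.20 and 0.46 on all arrays. Kif2a, a kinesin that shortens microtubules, was between -0.25 and 1.07 except on D4+LIF in Cy5, where it read 5.17 with a difference of 1.56 between its 2 spots.

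**Figure D5:**
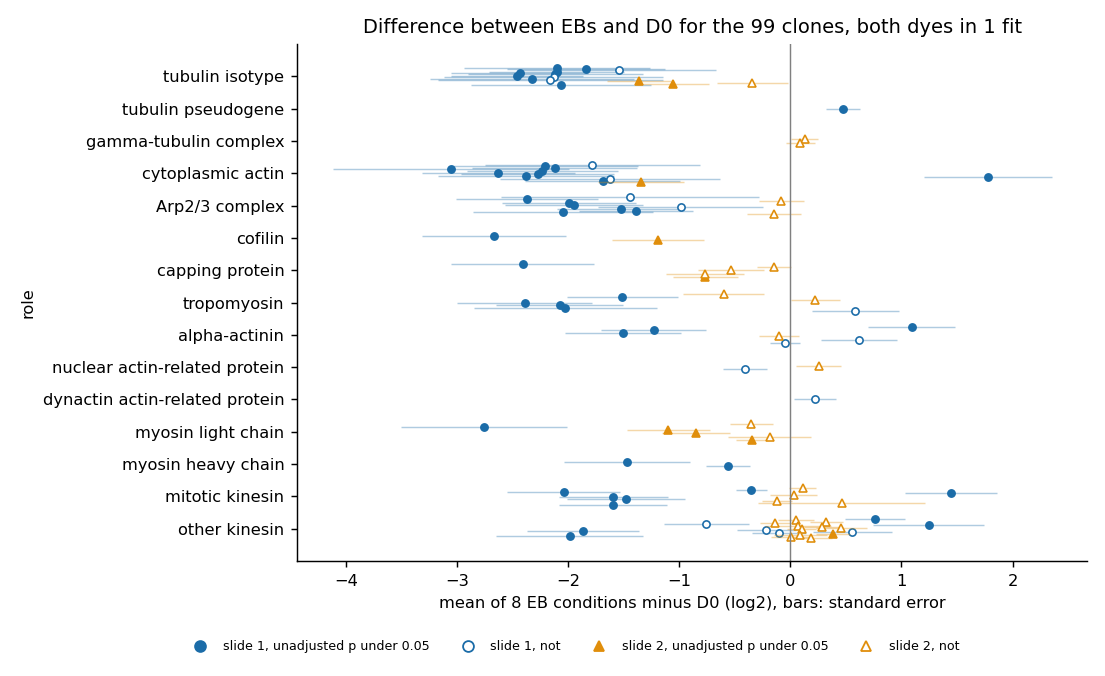
Log2 change of all EBs against D0 (horizontal axis, bars are standard errors) for the 99 clones by role (vertical axis), with slide shown by shape and an unadjusted p under 0.05 by filled points. Tubulin isotypes and cytoplasmic actin lie below 0 except 1 Actb clone, kinesins lie on both sides, and these directions rest on the scaling of the arrays, since the median of all members was -0.99 here and 0.0042 with arrays scaled to equal spread.

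The second comparison asked which members differed between EBs and D0. In the fit over all 15360 clones no member passed an adjusted p of 0.05 in any of the 8 comparisons of an EB condition with D0, and none did over all EBs, where 29 of 15360 clones passed (0.189%). For the 8 single conditions the share passing over all clones was 0%. At an unadjusted p under 0.05, all EBs against D0 gave 55 members, where 33.3% of all clones did, with 48 lower (background 17.7%) and 7 higher (15.6%). By class these were 11 of 17 tubulin clones (10 lower), 27 of 45 actin clones (25 lower) and 17 of 37 motor clones (13 lower). The median change was -2.06 for tubulin, -1.44 for actin and -0.12 for motor clones, beside 0.01 for all clones. These directions depended on the scaling and the direction of the ratios. With arrays scaled to equal median absolute deviation the median over the 99 members was 0.0042, with quantile normalization -0.10 and with the Cy3 signs turned 0.28, against -0.99 as fitted.

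The result turned on the D0 arrays. Without the D0 array in Cy5 57 members passed an adjusted p of 0.05, where 36.1% of all clones did, while without the D0 array in Cy3 none passed, 3 had an unadjusted p under 0.05 (6.2% of all clones) and the median was -0.19. Without the first-slide values of D0 in Cy3, D1+LIF in Cy5 and D2-LIF in Cy5 the median was -0.24 and 12 members had an unadjusted p under 0.05 (13.2% of all clones). Without the D4+LIF array in Cy3 3 members passed (2.38% of all clones).

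The slides differed. The 62 first-slide members had a median change of -1.74 and the 37 second-slide members -0.11, with 46 and 9 at an unadjusted p under 0.05. The background was 49.2% of first-slide clones and 17.4% of second-slide clones. Within Cy3 alone 70 members passed an adjusted p of 0.05, 58 of them lower, where 57.5% of all clones passed, and this rests on the single D0 array in Cy3. Within Cy5 alone no member passed and 1 had an unadjusted p under 0.05, against 2.70% of all clones, though 73 of 99 had a negative sign.

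The single conditions share the D0 arrays, and their values are given side by side. At an unadjusted p under 0.05, 41 members were found for D1-LIF (background 21.8%), with 39 lower (13.5%) and 2 higher (8.37%). For D2-LIF there were 4 (7.65%), with 1 lower (3.14%) and 3 higher (4.51%). For D3-LIF there were 40 (18.8%), with 37 lower (12%) and 3 higher (6.74%). Among members at this p, lower values thus prevailed on Days 1 and 3 but not on Day 2. By sign alone the days were alike, with 74, 72 and 75 of 99 members negative on Days 1, 2 and 3. Over all 15360 clones 7901, 7623 and 7693 were negative. Day 4 without LIF had 13 (11.8%), with 11 lower (7.17%) and 2 higher (4.64%).

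With LIF, D1+LIF had 25 such members (20.6%), of which 24 were lower (10.7%) and 1 higher (9.88%). D2+LIF had 34 (18%), of which 30 were lower (11%) and 4 higher (7.01%). On both days lower values were the more frequent. D3+LIF had 31 (21.3%), of which 26 were lower (11.2%) and 5 higher (10.1%). D4+LIF had 35 (26.6%), of which 28 were lower (15.3%) and 7 higher (11.3%). D1-LIF and D3-LIF had the largest counts, and D2-LIF, with few spots in Cy5, the smallest. Without the D0 array in Cy5 between 28 and 59 members passed an adjusted p of 0.05 in these 8 comparisons, where 21.8% to 36.4% of all clones did. Leaving out the Cy3 array of D1+LIF gave 8 members for that condition (16.3% of all clones tested), and leaving out that of D4+LIF gave 17 (18.7%).

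The third comparison asked for a trend from D0 to D4. Neither trend gave a member past an adjusted p of 0.05 (0% of all clones). Without LIF 7 members had an unadjusted p under 0.05 (background 7.94%), 5 lower (4.4%) and 2 higher (3.54%). With LIF 26 had (background 20.3%), 20 lower (11.6%) and 6 higher (8.7%). On the second slide these were 14 of 37 members and 31.3% of all clones, on the first 12 of 62 members and 9.23% of all clones. The 2 clones of smallest p in each class with LIF were all on the second slide. They were Tubb5 BG087420 at -0.38 per day (SE 0.0851, limma adjusted p = 0.113), Tubb5 CK335044 at -0.43 and Actg1 at -0.46. Cfl1 BG086288 followed at -0.42, Myl12b BG084591 at -0.41 and Myl6 at -0.34 per day.

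For these 6 clones the slopes within Cy3 ran from -0.26 to -0.12 per day and those within Cy5 from -0.54 to -0.29. The sign was the same in both dyes, which the choice of these clones by the fit over both dyes favours. With the Cy3 signs turned, the slopes in the 2 dyes would have opposite signs. The SD of the second slide in Cy5 was 0.43 in D0 and 1.41 in D4+LIF, and its part in these slopes was not tested. Without LIF the 2 clones of smallest p in each class were Tubb2a-ps2 (0.16 per day), Tubb4b BG078160 (-0.49), Tpm3 BG077822 (-0.45), Cfl1 CK334370 (-0.46), Kif23 BG081358 (-0.37) and Kif22 BG066980 (0.29), all on the first slide and each with a limma adjusted p of 0.589. For that trend 14.2% of all first-slide clones had an unadjusted p under 0.05, against 1.63% of all second-slide clones. The difference between the 2 trends gave no member past the adjusted threshold and 9 at an unadjusted p under 0.05 (background 6.29%). Without the D0 array in Cy5 38 members passed for the trend without LIF (25.5% of all clones) and 56 for that with LIF (35.7%). For the latter 6 passed without the D1+LIF array in Cy3 (9.87% of all clones tested) and 15 without the D4+LIF array in Cy3 (16.9%), which also gave 8 for the difference of the trends (8.05%).

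The fourth comparison set the 4 conditions without LIF against the 4 with LIF. No member passed an adjusted p of 0.05 (0% of all clones), and 6 had an unadjusted p under 0.05, where 3.44% of all clones did, with 4 higher (1.46%) and 2 lower (1.97%) without LIF. The motor clones of smallest p were Myl6 at 0.54 (SE 0.205) and Kif14, a kinesin of cell division, at -0.26 (SE 0.0981), the actin clones Actn4 at -0.25 (SE 0.094) and Tpm1 at 0.59 (SE 0.243), and the tubulin clones Tubb2a-ps2 at -0.25 and Tubb5 CK335044 at 0.44, each with a limma adjusted p of 0.869. All 6 myosin light chain clones had a positive sign, with a median of 0.23, but with arrays scaled to equal median absolute deviation Myl6 stood at -0.018. Class medians were -0.02 for tubulin, 0.10 for actin and -0.03 for motor clones, beside -0.02 for all clones. In the F test over the 9 conditions no member passed (0% of all clones) and 8 had an unadjusted p under 0.05 (background 4.18%). D3+LIF against D1+LIF gave 4 such members (background 2.89%) and none past the adjusted threshold. Leaving out the D4+LIF array in Cy3 gave 1 member past it for LIF (Kif2a; 0.729% of all clones) and 1 in the F test (0.352%). Leaving out the D1+LIF array in Cy3 gave 4 for D3+LIF against D1+LIF (13.5% of all clones tested) and 2 in the F test (7.17%), for which 25 passed without the D0 array in Cy5 (16.2%).

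Partners of the same filaments were counted in lists of known genes. The folding list, the CCT chaperonin, prefoldin and the tubulin cofactors that fold tubulin and actin, had 27 clones of 14 genes with a median change of -0.9996 over all EBs against D0, and 15 were lower and none higher at an unadjusted p under 0.05. Its Cct8 clone was 1 of the 29 clones past the adjusted threshold and fell by 3.58 (SE 0.486, limma adjusted p = 0.043). Its median percentile was 91.6 for D0 in Cy3 and 7.13 for D0 in Cy5, on opposite sides in the 2 dyes like the tubulins. Microtubule binding proteins had 34 clones, 10 lower and 1 higher, with a median of -0.08, and Tpt1, a tubulin-binding protein, fell by 1.76 (SE 0.248, adjusted p = 0.043). Dynein and dynactin had 14 clones, 6 lower and 1 higher, with a median of -0.34.

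Actin-binding proteins had 48 clones, 13 lower and 3 higher, with a median of -0.24. Unconventional myosins had 7 clones, 3 lower and 1 higher, with a median of -0.42, and intermediate filaments and lamins had 13 clones, 4 lower and none higher, with a median of -1.08. Other actin isoforms had 3 clones, none at an unadjusted p under 0.05. All these counts stand beside the background of 33.3% of all clones, 17.7% lower and 15.6% higher. In both directions together, microtubule binding (32.4%), actin binding (33.3%) and intermediate filaments (30.8%) were near it. Folding (55.6%), dynein and dynactin (50%) and unconventional myosins (57.1%) were above it. The background was 49.2% on the first slide and 17.4% on the second, and the lists were not split by slide.

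Markers of cell types were set beside these values. The 8 clones of 7 genes of undifferentiated ES cells, among them Pou5f1 and Nanog, were at a median percentile of 89.8 for D0 in Cy3 and 11.5 for D0 in Cy5. Of the 8 clones, 7 were lower over all EBs at an unadjusted p under 0.05 (17.7% of all clones), by 2.39 for Pou5f1. In Cy3 their EB medians ran from 18.5 to 91.7 and in Cy5 from 7.14 to 36.9, so these markers were high for D0 in Cy3 and low for D0 in Cy5. For D0 this was the side of the tubulin isotypes and cytoplasmic actin in each dye, but in EBs the sets parted. In D4-LIF in Cy3 the markers were at 47.1, tubulin isotypes at 95.9 and cytoplasmic actin at 99.3. In D3+LIF in Cy3 these were 62.7, 28.9 and 46.7. The part of such cells in the tubulin and actin values was not tested. Extraembryonic endoderm had 21 clones of 10 genes, at 55.9 and 49.9 for D0 in Cy3 and Cy5, and fibroblast markers 8 clones of 4 genes, at 43.0 and 71.0. Over all EBs 8 endoderm clones were lower and 3 higher at an unadjusted p under 0.05, with a median change of -0.04. Of the fibroblast clones 0 were lower and 2 higher, with a median of 0.05. The background was 17.7% lower and 15.6% higher. No heart or muscle marker on the list was measured, and mesoderm and neurectoderm had 1 clone each.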

How the data were processed

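RNA of 9 conditions was hybridised against a pooled control on 2-colour cDNA arrays of 2 slides. The authors quantified the scans with ImaGene, scaled both channels to their mean intensities and deposited a ratio per spot, with which channel over which not stated. Ratios were taken to log2, duplicate spots (160 apart in each printed block of 360, with the 40 edge spots of a block left out) were averaged, and values were centred on the median of each slide of each array. Probe genes came from the platform annotation, by single symbol. Limma (version 3.58.1, R 4.3.3) was fitted to all 15360 clones with 9 condition means and a dye term, with Benjamini-Hochberg adjustment over all clones and a threshold of 0.05. The fit was tested on simulated clones with independent noise and no difference between dyes. A pass was required only at a spread below the real one, so the fit was not tested under the dye differences seen here. The members and lists were chosen with earlier results of these data known. Clones were named if the study names the gene, if a gene had 3 or more clones, for the 2 smallest p per class and comparison, or for the smallest difference between the 2 arrays of a condition, and further clones that stood apart (Actb CK334523, Kif2a, Kif28 and the remaining isotypes and light chains) were chosen after their values were seen. Alternatives covered centring, scaling, dye term, direction, array weights, duplicate spots, clones kept, gene level, each dye alone and leaving out each array in turn.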

Additional observations from a re-analysis of the deposited data

How the results depend on the processing

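No member clone passed the adjusted threshold in the fit as reported, and the count stayed at 0 in all 15 comparisons under equal median absolute deviation, quantile normalization, turned Cy3 signs, array quality weights and gene level. Within Cy5, where 5 comparisons were fitted (both trends, their difference, all EBs and LIF), it was 0 in each. It also stayed at 0 with no dye term and thus no replicate block, where the median change of all EBs against D0 was -0.98. The dye is the only pairing of the arrays that the labels give.

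Counts above 0 came from the following settings. For D1-LIF against D0 1 member passed with centring over both slides together, duplicate spots within 1, clones with every value, the second slide alone, and 3 first-slide arrays left out, each time Tubb5 BG087420. Centring over both slides together also gave 1 for D3-LIF, 1 for D3+LIF and 1 for all EBs. Clones with every value gave 5 for D4+LIF (6.13% of all clones tested) and 1 for all EBs, the second slide alone gave 10 for D4+LIF (17.1%), 1 for all EBs and 6 for the trend with LIF (8.58%), and leaving out the 3 first-slide arrays gave 1 for D4+LIF. With no centring 14 members passed for all EBs, only 1 of them lower, where 29.0% of all clones passed, and 70 passed within Cy3. The second slide alone and the 3 first-slide arrays left out were chosen after seeing the data. The cause was not tested.

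Leaving out each array in turn moved the counts from 0 to 53 at Day 1, 28 at Day 2, 55 at Day 3 and 43 at Day 4 without LIF, to 48, 53, 56 and 59 on the same days with LIF, and to 57 (all EBs), 38 (trend without LIF), 56 (trend with LIF), 8 (difference of trends), 1 (LIF), 4 (D3+LIF against D1+LIF) and 25 (F test), with 0 as the lowest in each. The highest counts without the D0 array in Cy5 stand beside 16.2% to 36.4% of all clones.

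The mean of the tubulin class medians over the Cy3 arrays became -0.68 with the Cy3 signs turned. With no centring that of actin in Cy5 became -0.29, that of motors -0.12 in Cy3 and 0.55 in Cy5.

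Some single clones reversed. With the Cy3 signs turned, the change of all EBs became 0.031 for Tubb5 BG087420, 1.63 for Tubb5 BG065290, 1.44 for Cfl1 CK334370, 1.63 for Tpm3, 1.17 for Kif18a and 1.64 for Myl12b BG078443. The trend without LIF became -0.032 for Tubb2a-ps2, 0.050 for Tubb4b, 0.31 for Tpm3, 0.23 for Cfl1, 0.21 for Kif23 and -0.20 for Kif22, and the LIF difference became 0.31 for Tubb2a-ps2, 0.086 for Actn4 and 0.16 for Kif14. With equal median absolute deviation all EBs became 0.36 for Tubb5 BG065290 and 0.039 for Cfl1 CK334370, the trend without LIF 0.031 for Cfl1, and the LIF difference -0.42 for Tubb5 CK335044, -0.028 for Tpm1 and -0.018 for Myl6. Within Cy5 the LIF difference of Tubb2a-ps2 became 0.057. Of 377 values of named clones under the alternatives, 340 kept their direction and side of the threshold, and of 530 with 1 array left out, 501 did and none reversed.

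With 2 arrays a condition, differences under the spread between dyes could not be resolved, and no channel intensities were used here, so spots near background could not be left out.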
